A study of Mus musculus with 3 samples.

Results

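The A20 circuit is a small set of genes that edit ubiquitin chains on the signalling proteins upstream of NF-κB. It was taken here as 8 genes chosen by name: Tnfaip3, Tnip1, Tnip2, Tnip3, Tax1bp1, Itch, Rnf11 and Cyld. All 8 were found among the 55536 annotated genes of the deposited tables, of which 22028 are protein-coding. RNA was measured in bone-marrow-derived macrophages, primary cells grown from the marrow of C57BL/6J mice, exposed for 20 min to lipid A at 100 ng/ml. Lipid A is the lipid anchor of bacterial lipopolysaccharide and the ligand of TLR4. The RNA came from the chromatin fraction, where nascent and unreleased transcripts are concentrated, and ribosomal RNA was depleted before sequencing. There was 1 group of 3 libraries, made from 1000, 250 and 500 ng of RNA in biological replicates 1, 2 and 3. No untreated sample was analysed here, so the values are levels and not inductions. Each replicate has a biosample of its own under 1 donor entry, and separate animals are not stated, so the spread between them may be partly technical.

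When TLR4 is engaged, ubiquitin ligases attach chains to adaptors and kinases such as TRAF6, RIPK1 and NEMO, and these chains recruit the complexes that activate NF-κB. NF-κB then drives transcription of its own inhibitors. A20, the product of Tnfaip3, is the best known of these: it removes some ubiquitin chains from its clients and promotes the addition of others that mark proteins for degradation. It works with the ubiquitin-binding partners ABIN-1, ABIN-2 and ABIN-3 (Tnip1, Tnip2 and Tnip3) and with TAX1BP1, ITCH and RNF11, while CYLD is a separate deubiquitinase acting on some of the same targets.

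The gene tables held 16141381, 16196661 and 12398651 expected counts on annotated genes in replicates 1, 2 and 3. Protein-coding genes took only 15.8%, 18.0% and 24.7% of all TPM, a level scaled to the library and corrected for transcript length. TPM is therefore used below to compare genes, while libraries are compared with CPM, counts scaled to library size with TMM factors, or with TPM rescaled to the protein-coding genes. In the gene tables all 8 macrophage markers reached 1 TPM in every library, and none of 5 T and NK cell, 3 B cell, 4 neutrophil and progenitor, 3 fibroblast or 2 erythroid markers did. In the kallisto tables described below, 2 of the T and NK cell markers, Cd3d and Cd8a, and the fibroblast marker Col1a1 also did, with means of 13.1, 2.83 and 1.57 TPM.

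Promoter sequences are shown first, because several of these genes are known NF-κB targets and the sequence motif can be read directly. RefSeq promoters on GRCm38.p6, spanning 250 bases before to 50 bases after a start, were found for 6 of the 8 genes. They comprised 8 promoters, of which 5 held a match to the 10-base κB consensus on either strand. The same search matched 8.46% of all 32851 promoters of that length. Stretches around the matches upstream of the start are printed for the 4 genes that have them, on the strand of the gene, with the matches in capitals. In Tnfaip3 the capitals also mark GGAATTTCC, a shorter form found on either strand in 0.317% of all promoters.
Tnfaip3, chr10:19015411-19015555, minus strand: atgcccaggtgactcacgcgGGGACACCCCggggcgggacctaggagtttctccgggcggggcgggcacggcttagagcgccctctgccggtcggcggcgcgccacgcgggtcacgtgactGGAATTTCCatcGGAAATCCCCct
Tnip3, chr6:65590324-65590373, plus strand: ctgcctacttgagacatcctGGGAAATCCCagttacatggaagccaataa
Tnip1, chr11:54962967-54963018, minus strand: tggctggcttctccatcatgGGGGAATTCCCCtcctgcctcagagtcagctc
Cyld, chr8:88696853-88696902, plus strand: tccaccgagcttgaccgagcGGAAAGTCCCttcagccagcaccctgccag
In Tnfaip3 the consensus lay at positions -125 to -116 and -12 to -3 relative to the start, with GGAATTTCC between them at -24 to -16. The Tnip3 match lay at -54 to -45, and the capitals in Tnip1, at -58 to -47, hold several overlapping matches. The Cyld match, at -155 to -146, and the Tnfaip3 match at -12 to -3 were on the opposite strand only. The fifth match lay downstream of the second Tax1bp1 start, at positions 34 to 43. The Tnip2 promoter, the first Tax1bp1 promoter and the second Tnfaip3 promoter held none of these letters. A match is a description of the sequence and does not show that a factor was bound.

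All 8 genes reached 1 TPM in every library, against 20.8% of all annotated genes and 40.6% of protein-coding genes. Their mean levels nevertheless differed widely. Tnfaip3 and Tnip3 stood far above the rest, 5 genes lay between 18.0 and 50.5 TPM, and Rnf11 was the lowest. Tnfaip3 and Tnip3 together made up 73.0%, 54.3% and 64.8% of the summed TPM of the 8 genes in replicates 1, 2 and 3.

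Tnfaip3, which encodes A20, lies on chr10:19000910-19015657 on the minus strand. Its level was 263 TPM in replicate 1, 124 TPM in replicate 2 and 252 TPM in replicate 3, from 20298, 6279 and 9318 expected counts. Replicate 2 was the low one. Among the 22028 protein-coding genes Tnfaip3 ranked 37th, 182nd and 83rd by TPM in the same libraries. On the log2(TPM + 0.1) scale it exceeded the median of the other 7 genes by 2.64 ± 0.55 (SD, n = 3), and it was the highest of the 8 in every library.

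Of the 3 A20-binding partners, Tnip3 had by far the highest level. It encodes ABIN-3, which in human cells is an NF-κB-inducible partner of A20, and lies on chr6:65525313-65634040 on the plus strand. It reached 136 TPM in replicate 1, 54.2 TPM in replicate 2 and 140 TPM in replicate 3, from 9150, 2799 and 5219 expected counts. As for Tnfaip3, replicate 2 was well below the other libraries. The ratio of Tnfaip3 to Tnip3 TPM was 1.93, 2.30 and 1.80 in replicates 1, 2 and 3, so the order of the pair was the same in all 3.

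Tnip2, which encodes ABIN-2, a partner of A20 that also stabilises the kinase TPL2, lies on chr5:34496087-34513991 on the minus strand. Its level was 29.7, 32.3 and 44.5 TPM in replicates 1, 2 and 3. Tnip1, on chr11:54910785-54962917 on the minus strand, encodes ABIN-1, which links A20 to ubiquitinated NEMO. Its level was 37.1, 27.0 and 32.4 TPM in replicates 1, 2 and 3. Neither gene ranked above the other in all libraries: Tnip1 was higher in replicate 1 and Tnip2 in replicates 2 and 3.

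Of the other A20 cofactors, Tax1bp1 was the highest. It encodes an adaptor that recruits A20 and ITCH to their clients and also serves as an autophagy receptor, and it lies on chr6:52713729-52766780 on the plus strand. Tax1bp1 measured 39.9, 44.9 and 66.6 TPM in replicates 1, 2 and 3. Itch, on chr2:155133509-155226855 on the plus strand, encodes a HECT-type ubiquitin ligase and measured 23.5, 29.9 and 38.4 TPM in replicates 1, 2 and 3. Both were highest in replicate 3 and lowest in replicate 1, the same order as the share of TPM taken by protein-coding genes. Rescaled to the protein-coding genes, Tax1bp1 was at 253, 249 and 270 TPM and Itch at 149, 166 and 155 TPM in replicates 1, 2 and 3, much closer together.

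Rnf11, on chr4:109451098-109484728 on the minus strand, encodes a small RING-type protein of the A20 complex. It was the lowest of the 8 in every library, at 2.94, 2.51 and 5.59 TPM from 249, 178 and 258 expected counts in replicates 1, 2 and 3. Cyld lies on chr8:88697028-88751945 on the plus strand and measured 14.8, 13.3 and 25.9 TPM in replicates 1, 2 and 3. The ratio of Cyld to Rnf11 TPM was 5.03, 5.29 and 4.63 in these libraries. The deubiquitinase outside the A20 complex was thus lower than A20 itself in every library, and the RING cofactor was lower still.

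In the order of mean TPM, 5 of the 7 neighbouring pairs had the same order in all 3 libraries. The exceptions were Tnip2 with Tnip1, whose log2 ratio was 0.13 ± 0.41, and Tnip1 with Itch, at 0.09 ± 0.49 (SD, n = 3). Neither difference exceeded its spread between replicates. The ratio of Tnip3 to Tax1bp1 kept its direction but was 3.41, 1.21 and 2.11 in replicates 1, 2 and 3. No test was run, because an exact two-sided sign-flip test over 3 libraries cannot give a p below 0.25.

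The kallisto tables, for which no alignment file was listed among the inputs, gave higher levels for all 8 genes. Tnfaip3 was at 404 ± 182 TPM there and Tnip3 at 145 ± 75.7 TPM (SD, n = 3). Of all protein-coding genes, 8942 reached 1 TPM in every library of the gene tables, and 11358 did so by kallisto. How many of those genes had a higher level by kallisto was not counted. Outside the circuit, Nfkbia was higher by kallisto, at a mean of 586 against 241 TPM. Sharpin was lower, at a mean of 19.2 against 23.6 TPM. Of the 8 genes, Tnip1 differed most, with a kallisto mean 2.42 times that of the gene tables, and Rnf11 least, at 1.27 times. Tnip1, at 78.0 ± 21.7 TPM, was above Tnip2, at 62.3 ± 11.3 TPM, in all 3 libraries of the kallisto tables (SD, n = 3). The place of Tnip1 in the order thus depended on the quantification, while Tnfaip3 and Tnip3 led and Rnf11 came last in both.

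**Figure D1:**
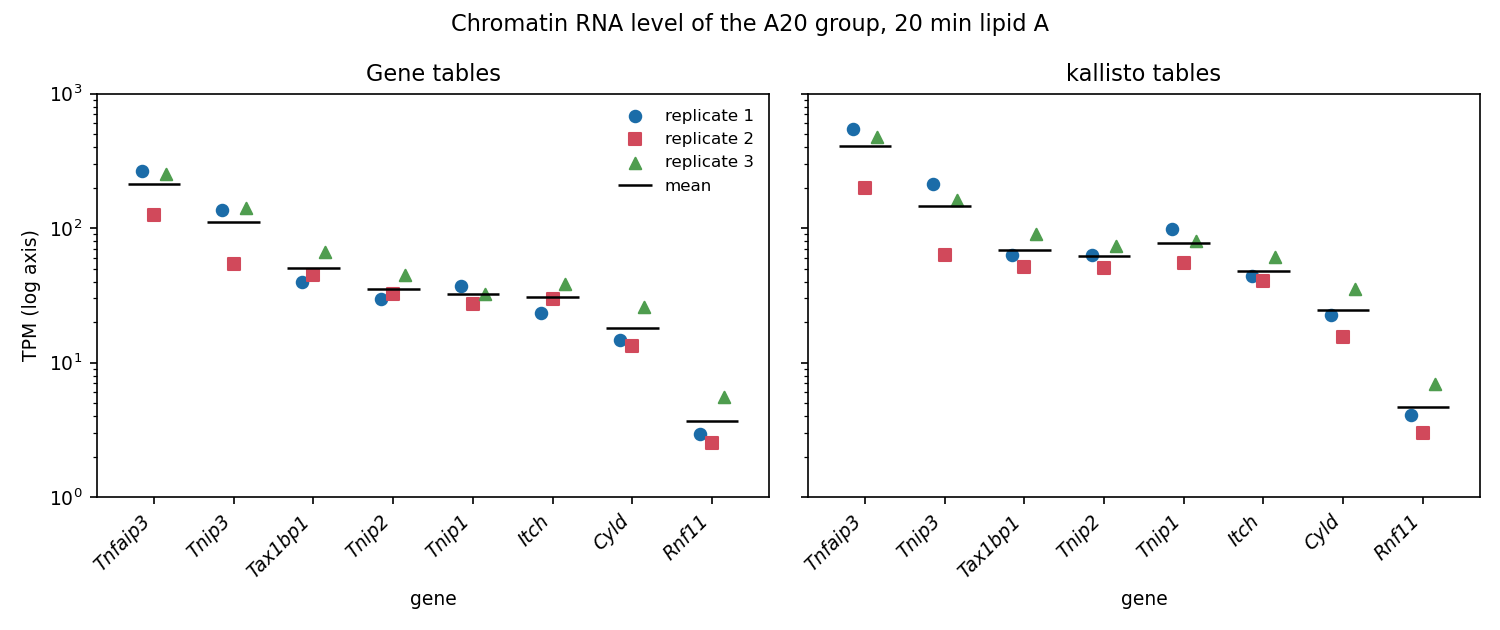
TPM (log axis) of the 8 genes in the gene tables (left) and the kallisto tables (right); each point is a replicate and the black line the mean of 3. Tnfaip3 averages 213 TPM and Rnf11 3.68 TPM in the gene tables, and replicate 2 is the lowest library for Tnfaip3 and Tnip3 in both panels.

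The reads of Tnfaip3 and Tnip3 fell largely on isoforms that keep introns. Noncoding isoforms, that is retained introns and processed transcripts in the annotation, held 98.7 ± 0.20% of Tnip3 TPM and 75.1 ± 4.02% of Tnfaip3 TPM (SD, n = 3). Over 7454 detected protein-coding genes that have noncoding isoforms (all libraries at 1 TPM or more) the median share was 48.1%. Itch, at 75.3 ± 1.58%, and Cyld, at 67.2 ± 3.38%, were also above that median (SD, n = 3). Tnip2, at 52.4 ± 7.82%, Tax1bp1, at 47.8 ± 5.27%, and Tnip1, at 47.0 ± 15.8%, had spreads that included it (SD, n = 3), and Rnf11 has no such isoform. In the kallisto tables, where the median is 53.5%, Tnip3 was at 90.4 ± 0.74%, Itch at 84.5 ± 1.35% and Tnip2 at 67.1 ± 5.34%, all above it (SD, n = 3). Cyld, at 58.1 ± 4.09%, was within 2 SD of that median, Tnip1, at 53.5 ± 1.68%, was at it and Tax1bp1, at 41.2 ± 3.30%, was below it (SD, n = 3).

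In Tnip3, the 2 single-exon isoforms Tnip3-206 and Tnip3-204 took 91.9% of the gene's expected counts in replicate 1, 94.7% in replicate 2 and 95.7% in replicate 3. Of their length, 94.7% and 95.1% lies outside the exons of protein-coding isoforms, so most of their sequence is intronic. Measured from the start of the coding isoform Tnip3-201, which ends 43.6 kb downstream, Tnip3-206 runs to 4.72 kb and Tnip3-204 from 7.18 to 9.80 kb. No retained-intron isoform covers the later introns, so reads there would not be counted. Counts assigned to Tnip3-201 were 212, 50.8 and 82.0 in replicates 1, 2 and 3.

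All protein-coding Tnip3 isoforms together were at 2.13, 0.68 and 1.68 TPM in replicates 1, 2 and 3. On that measure Tnip3 was the lowest of the 8 genes, at 1.50 ± 0.74 TPM, while Tnfaip3 still led, at 52.2 ± 18.4 TPM (SD, n = 3). Tax1bp1 came next, at 26.0 ± 5.13 TPM, and Tnip2 and Tnip1 followed, at 17.3 ± 6.69 and 16.6 ± 3.49 TPM (SD, n = 3). In the kallisto tables the coding isoforms of Tnip3 were at 14.3 ± 8.20 TPM, the fifth level of the 8 (SD, n = 3). Of these, Tnip3-207 was at 20.1, 5.41 and 13.2 TPM in replicates 1, 2 and 3, but at 0 in the gene tables. Most of the Tnip3 level thus rested on isoforms annotated as noncoding in both tables.

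In Tnfaip3, the 6199-base retained-intron isoform Tnfaip3-205 took 64.7 ± 4.09% of the expected counts and the coding isoform Tnfaip3-202 took 24.7 ± 3.62% (SD, n = 3). Only 29.5% of the Tnfaip3-205 sequence lies outside coding exons, so a read on it may come from spliced or unspliced RNA. The shortest isoforms weighed more in TPM, which divides by length: Tnfaip3-206, of 764 bases, took 9.65% of the counts but 46.8% of the TPM. Tnfaip3 had a noncoding share of 55.4% in the kallisto tables, where Tnfaip3-204, a 456-base isoform annotated as coding, took 32.6% of the TPM. The median share over the same 7454 genes was 53.5% in those tables, so Tnfaip3 was only slightly above it there.

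**Figure D2:**
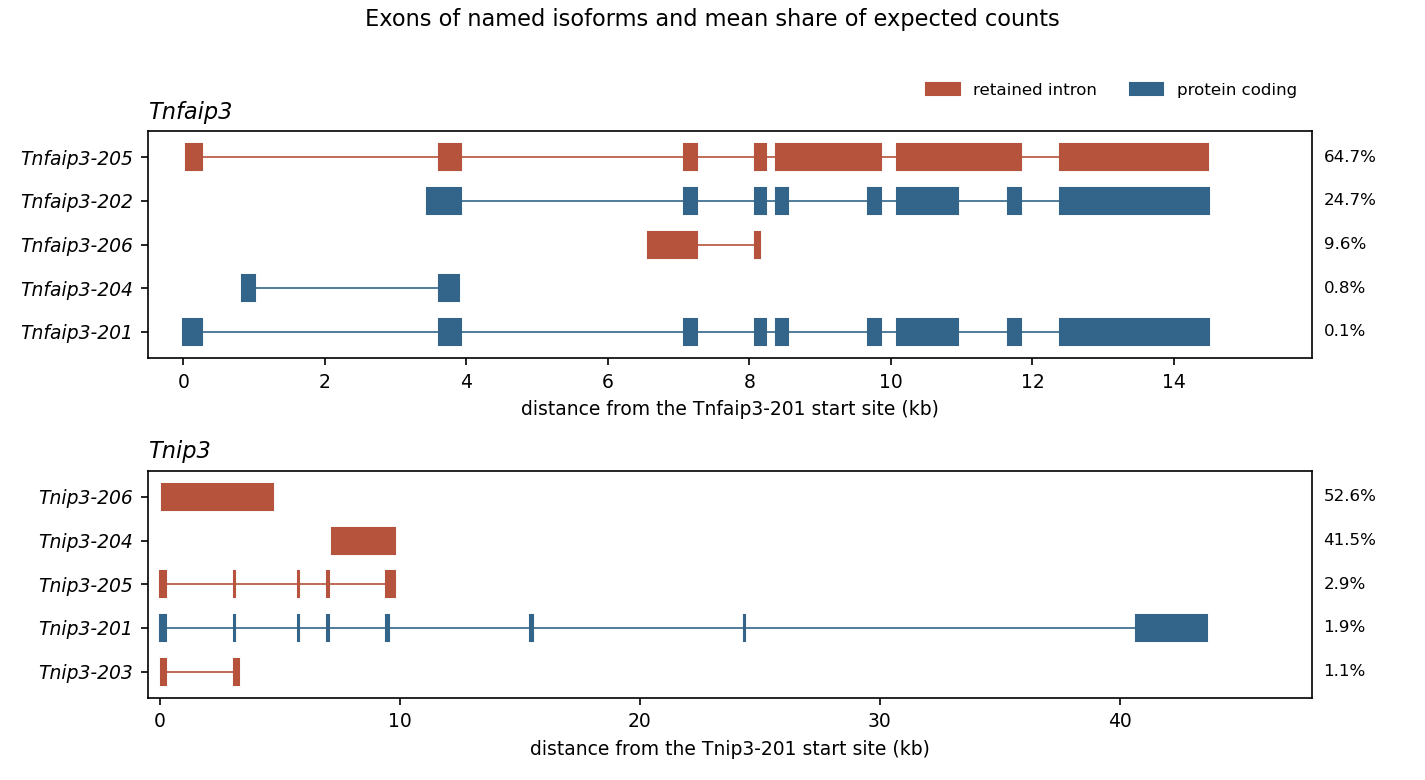
Exons (boxes) of the named isoforms of Tnfaip3 and Tnip3 against distance in kb from the start of isoform 201, with the mean share of the gene's expected counts over 3 libraries at the right. In Tnip3, the single-exon isoforms 206 and 204 hold 52.6% and 41.5% of the counts within the first 9.80 kb of a 43.6 kb unit.

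The other genes differed in which isoforms carried their signal. In Tax1bp1, the coding isoform Tax1bp1-201 held 42.4% of the TPM, and the retained-intron isoforms Tax1bp1-202 and Tax1bp1-206 held 31.5% and 15.6%. In Itch, the coding isoform Itch-201 held 22.4% of the TPM, and the retained-intron isoforms Itch-204, Itch-203 and Itch-205 held 28.0%, 24.3% and 15.9%. Of the sequence of Itch-204 and Itch-205, 86.8% and 82.9% lies outside coding exons, but of Itch-203 only 5.52%, so its reads may come from spliced or unspliced RNA. In Cyld, the processed transcript Cyld-208 held 27.4% of the TPM and the coding isoform Cyld-203 held 16.4%, although Cyld-203 took 37.6% of the counts. Rnf11-201 held 71.8% of the Rnf11 TPM in the gene tables and all of it in the kallisto tables.

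By counts in place of TPM, coding isoforms dominated the ABIN genes other than Tnip3. Noncoding isoforms held only 10.2% of Tnip1 counts and 24.1% of Tnip2 counts, against 98.1% of Tnip3 counts. Tnip1-205 and Tnip2-202, both coding, took 58.8% and 70.3% of the counts of their genes. Short isoforms with few reads raised the Tnip1 TPM: the 347-base Tnip1-210 was at 8.59 TPM in replicate 1 from 38.4 counts, and at 0.83 and 1.23 TPM in replicates 2 and 3. Coding isoforms of Tnip1 were at 12.89, 17.05 and 19.82 TPM in replicates 1, 2 and 3. The higher Tnip1 TPM in replicate 1 of the gene tables thus rested on noncoding isoforms. In the kallisto tables the coding isoforms were at 43.9, 26.0 and 38.5 TPM, highest in replicate 1.

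**Figure D3:**
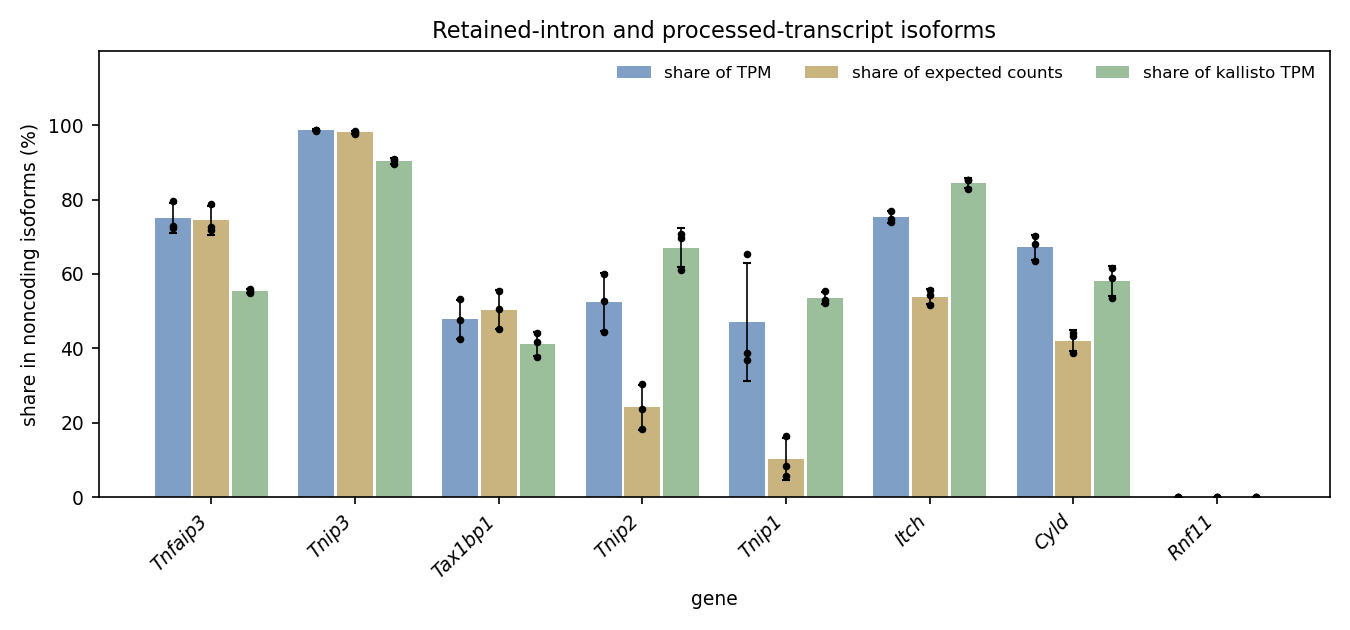
Percentage of each gene's TPM, expected counts and kallisto TPM held by isoforms annotated as noncoding; bars are means of 3 libraries, error bars are SD and points are libraries. Tnip3 is at 98.7% of TPM and Rnf11, with no such isoform, at 0, while Tnip1 is at 47.0% of TPM but 10.2% of counts.

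Whether counting used strand is not stated, so a gene cannot be told apart from one overlapping it on the opposite strand. Tnfaip3, Tnip3, Tnip2 and Rnf11 overlap no other annotated gene. Tnip1 overlaps Gm12230, a processed pseudogene of 454 bases with 198, 47 and 48 counts in replicates 1, 2 and 3. That pseudogene, like Tnip1 TPM, was highest in replicate 1, and its part in the Tnip1 level was not tested. Tax1bp1, Itch and Cyld also overlap short opposite-strand genes, none of which exceeded 64 counts in any library.

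Between libraries, Tnfaip3 and Tnip3 varied most and the other 6 genes varied little. Tnfaip3 was at 1238, 450.5 and 663 CPM in replicates 1, 2 and 3, and Tnip3 at 558, 201 and 371 CPM in the same libraries. Both were highest in replicate 1 and lowest in replicate 2, with a ratio of highest to lowest of 2.75 for Tnfaip3 and 2.78 for Tnip3. For the other 6 genes that ratio lay between 1.02 for Tnip2 and 1.44 for Rnf11. Tnip2 was at 52.0, 51.0 and 52.1 CPM and Tax1bp1 at 190.5, 182 and 182 CPM in replicates 1, 2 and 3, nearly level. Of the 8 macrophage markers, Lyz2 had the same order of libraries as Tnfaip3, at 354, 169 and 235 CPM. Its ratio of highest to lowest, 2.09, was the largest of those markers, and the smallest was 1.21. Replicate 2 was the lowest library for 2 of the 8 markers. Among the fibroblast markers, Col1a1 had 0, 43 and 31 counts and Col3a1 0, 22 and 18 counts in replicates 1, 2 and 3, and all 3 markers summed to 0, 0.85 and 0.81 TPM. Their slopes on starting RNA, the test described below, were negative and did not pass in the filtered edgeR fit (adjusted p = 0.169 for Col1a1 and 0.30 for Col3a1) but passed in the unfiltered one (adjusted p = 0.000125 for Col1a1 and 0.0277 for Col3a1). The part of either set of markers in the differences of Tnfaip3 and Tnip3 was not tested. In such bulk RNA, fewer responding cells and less RNA per cell cannot be told apart.

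The biological coefficient of variation that edgeR estimates, a measure of scatter beyond counting error that borrows from other genes, was 0.327 for Tnfaip3 and 0.318 for Tnip3. These lay at percentiles 96.5 and 96.1 of 13985 genes, whose median was 0.198. The other 6 genes lay between 0.171 and 0.192, at percentiles 8.79 to 41.1. Steady genes of the circuit and its most variable ones thus sat in the same libraries.

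Replicate 2 was set against the mean of replicates 1 and 3 after these values had been seen, so its differences are given without a test. On the log2 CPM scale the difference was -1.01 for Tnfaip3 and -1.18 for Tnip3, while the median of all genes was -0.03. Next were Rnf11 at -0.38 and Cyld at -0.27, and the remaining 4 genes lay between -0.04 and 0.17. Over 4 other scalings Tnfaip3 lay between -1.05 and -0.91 and Tnip3 between -1.35 and -1.11. Tnip1 turned from 0.17 in CPM to -0.36 in TPM, so no direction is given for it.

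Genes outside the circuit that NF-κB is known to induce as feedback were mostly low in replicate 2 too, but differed in the order of the other libraries. In TPM rescaled to the protein-coding genes, replicate 2 was the lowest library for 7 of 8 such genes, all but Nfkb2. It was also the lowest for 6 of the 8 circuit genes and 8 of 13 A20 clients and E2 enzymes. In the other lists described below it was lowest for 3 of 10 deubiquitinases, 2 of 9 relatives and adaptors and 0 of 5 genes of LUBAC and linear ubiquitin. The share was 38.3% of 8942 protein-coding genes at or above 1 TPM. Tnip2, at 188, 179 and 180, and Tax1bp1, at 253, 249 and 270 in replicates 1, 2 and 3, were lowest there only by little. The circuit genes that were not lowest there were Itch and Tnip1. Tnip3 was the one circuit gene whose replicate 2 value was below 0.5 of the mean of the other libraries, as for 2.26% of those protein-coding genes. Nfkbiz, which encodes an atypical IκB, was at 967, 230 and 408 CPM in replicates 1, 2 and 3. Nfkbia, the gene of the classical inhibitor IκBα, was at 541, 316 and 395 CPM, with the same order of libraries as Tnfaip3. Zfp36, at 485, 278 and 556 CPM, and Ier3, at 51.5, 33.3 and 52.1 CPM, were instead highest in replicate 3. Nfkb2, at 135, 102 and 74.7 CPM, was lowest in replicate 3.

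**Figure D4:**
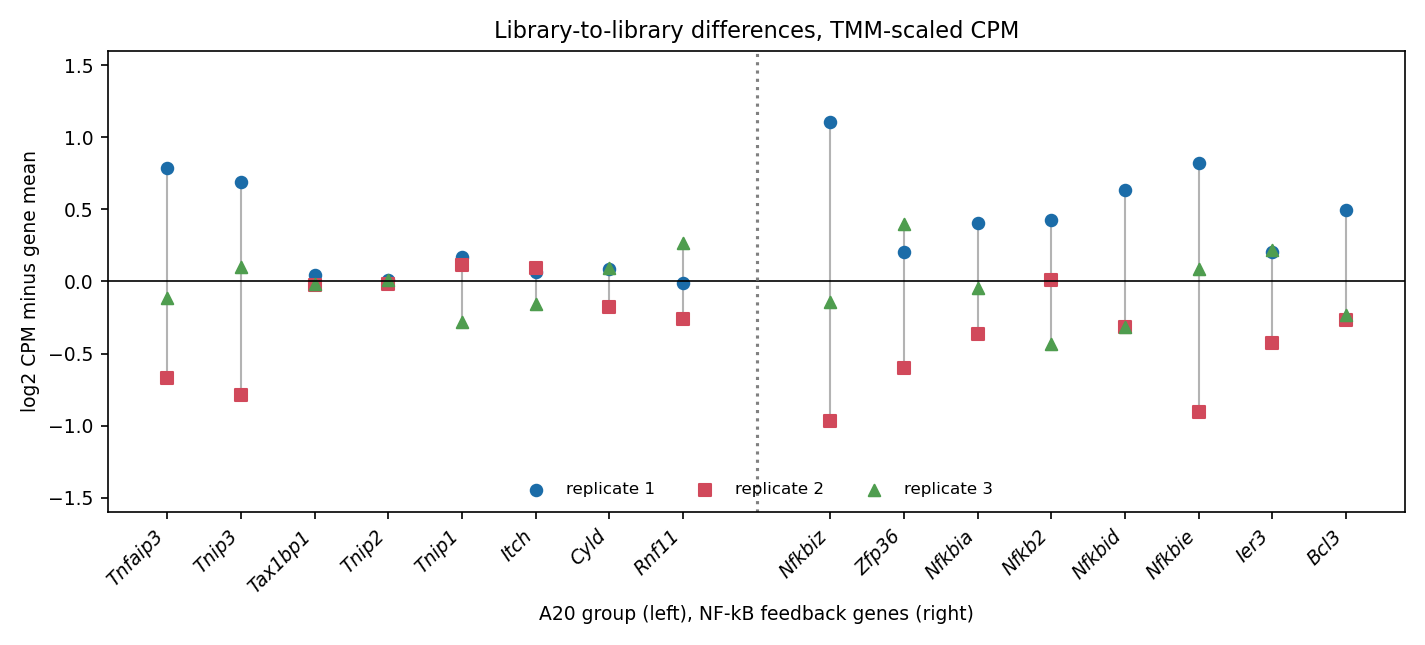
Deviation of each library's log2 CPM from the gene's mean over 3 libraries, for the 8 genes of the A20 circuit (left) and 8 NF-κB feedback genes (right). Replicate 1 is highest and replicate 2 lowest for Tnfaip3, Tnip3, Nfkbiz, Nfkbia and Nfkbie. Zfp36 and Ier3 are highest in replicate 3, and Nfkb2 is lowest there. Tax1bp1 and Tnip2 lie close to 0 in all 3.

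Starting RNA was the one labelled quantity that differed between libraries, and a slope on its log2 value was fitted over all genes with edgeR's quasi-likelihood test. With 1 library per amount and 1 residual degree of freedom, amount and library cannot be told apart, and the p-values rest on scatter borrowed from other genes. None of the 8 genes passed an adjusted p of 0.05, against 0.584% of 15065 genes in either direction, and 2 of the 8 had an unadjusted p below 0.05, as did 6.75% of the 15065 genes. Tnfaip3 had a slope of 0.72 ± 0.21 log2 units per doubling of RNA (SE, edgeR adjusted p = 0.223) and Tnip3 one of 0.73 ± 0.19 (SE, edgeR adjusted p = 0.137). With DESeq2 both passed, at adjusted p of 0.0240 for Tnfaip3 and 0.0189 for Tnip3. Of the 24261 genes fitted, 0.326% passed there in either direction and 0.317% with a positive slope. Without the filter on low counts both also passed in edgeR, at adjusted p of 0.0196 for Tnfaip3 and 0.0172 for Tnip3, against 1.17% of 24261 genes in either direction and 0.932% with a positive slope. The edgeR calls thus differed between the filtered and the unfiltered sets. DESeq2 was fitted to the same unfiltered genes but left low-count ones, such as the B cell marker Cd79a, without an adjusted p. For the DESeq2 calls, the set of genes and the tool therefore cannot be told apart. The slopes of the other 6 genes lay between -0.02 for Itch and 0.12 for Cyld, with an edgeR adjusted p of 0.999 for each. These small slopes rest on all 3 libraries: leaving out 1 gave, without a test, -0.44 to 0.45 for Tnip1, -0.28 to 0.48 for Rnf11, -0.29 to 0.21 for Itch and -0.02 to 0.23 for Cyld. Those of Tax1bp1 and Tnip2 stayed between -0.04 and 0.06.

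Among the feedback genes, 2 of 8 passed the edgeR test, Nfkbiz with a slope of 1.03 ± 0.20 (SE, edgeR adjusted p = 0.0237) and Nfkbie with 0.85 ± 0.17 (SE, edgeR adjusted p = 0.0237). In the kallisto tables, where 158 of 23931 genes passed, Nfkbie did and Nfkbiz did not, at an edgeR adjusted p of 0.202. Both were higher with more RNA, as were 0.551% of all genes tested. The slopes of Tnfaip3 and Tnip3 were not tested against these. No gene passed the edgeR test among the 13 A20 clients and E2 enzymes, where 3 had an unadjusted p below 0.05 (6.75% of all genes tested) and DESeq2 also called 0. Without the filter on low counts edgeR called Birc3 alone of that list, and in the kallisto tables it called Ripk2 alone, at an adjusted p of 0.0311.

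The remaining genes of the pathway were mostly detected. LUBAC is the ligase that builds the linear ubiquitin chains bound by A20 and the ABIN proteins. All 5 genes listed for LUBAC and linear ubiquitin were at or above 1 TPM. Rbck1 was at 28.7 ± 6.06 TPM, Sharpin at 23.6 ± 10.5 TPM and Rnf31, the catalytic subunit, at 18.7 ± 2.27 TPM (SD, n = 3). The lowest of that list was Spata2, which tethers CYLD to LUBAC, at 7.80 ± 1.40 TPM (SD, n = 3). In the kallisto tables Sharpin had the lowest mean, at 19.2 ± 6.83 TPM, and Spata2 was at 21.7 ± 4.22 TPM (SD, n = 3). In the gene tables the median TPM of those 5 genes was 18.5 ± 2.42 (SD over 3 libraries). It was 35.3 ± 5.43 for the 8 circuit genes and 0.41 ± 0.16 for all protein-coding genes (SD over 3 libraries).

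All 13 listed A20 clients and E2 enzymes were at or above 1 TPM throughout. Their median was 17.4 ± 5.15 TPM (SD, n = 3). Malt1, the paracaspase that can cleave A20, was highest in the gene tables, at 93.1 ± 37.9 TPM, and Birc3, a ubiquitin ligase gene, followed, at 73.8 ± 24.7 TPM (SD, n = 3). In the kallisto tables Birc3, at 200.5 ± 89.9 TPM, was above Malt1, at 104 ± 43.6 TPM, in all 3 libraries (SD, n = 3). The E2 gene Ube2d3 was at 68.7 ± 17.3 TPM and Ripk2, the kinase of the NOD receptors, was lowest, at 2.73 ± 1.12 TPM (SD, n = 3). Birc3 was at 189, 75.0 and 83.4 CPM in replicates 1, 2 and 3, so replicate 1 was the library that stood apart there.

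Of 12 other deubiquitinase genes 10 reached 1 TPM in every library, led by Usp7 at 54.0 ± 8.12 TPM, Usp15 at 49.2 ± 14.0 TPM and Otud5 at 37.9 ± 4.33 TPM (SD, n = 3). Each of these means was above that of Cyld, at 18.0 ± 6.88 TPM (SD, n = 3). The lowest measured one was Otud1, at 0.30 ± 0.27 TPM (SD, n = 3), and Otud7a is listed at 0 in the gene tables but at a mean of 74.0 TPM in the kallisto tables. Of 12 relatives and adaptors of the circuit proteins 9 reached 1 TPM in every library. The HECT ligase genes Wwp1, at 118 ± 33.1 TPM, Nedd4l, at 58.7 ± 9.47 TPM, and Wwp2, at 43.0 ± 8.88 TPM, had means above that of their relative Itch, at 30.6 ± 7.44 TPM (SD, n = 3). The lowest of that list were Hecw1, listed at 0 TPM with 1 count in replicate 1, and Hecw2, at a mean of 0.017 TPM.

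The 8 NF-κB feedback genes were also all at or above 1 TPM throughout. Their median was 47.8 ± 14.3 TPM (SD, n = 3). Nfkbia, at 241 ± 72.7 TPM, was the one member of that list with a mean above that of Tnfaip3, at 213 ± 77.3 TPM, a difference smaller than the SD of either (SD, n = 3). Zfp36, which encodes an mRNA decay factor, was at 151 ± 87.2 TPM and Nfkbiz at 115 ± 64.9 TPM, close to Tnip3 at 110 ± 48.6 TPM (SD, n = 3). Nfkbie was lowest, at 21.8 ± 10.9 TPM (SD, n = 3). In the kallisto tables Nfkbiz, at 241 ± 140 TPM, was less close to Tnip3, at 145 ± 75.7 TPM (SD, n = 3).

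**Figure D5:**
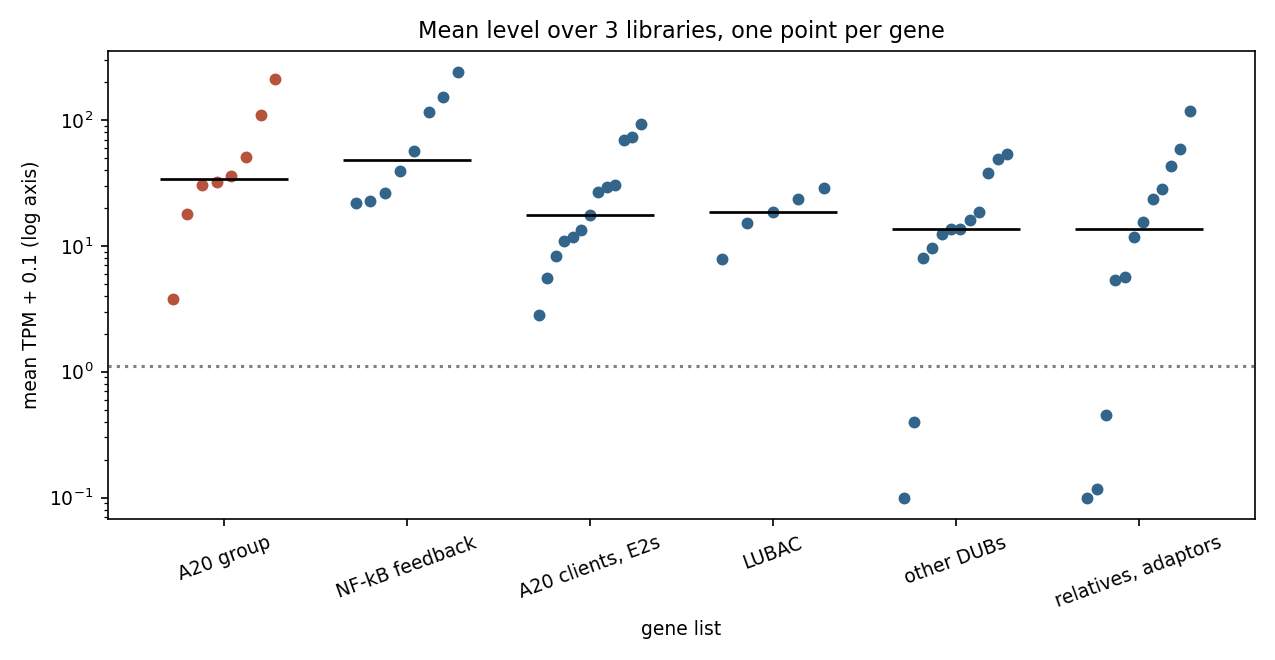
Mean TPM plus 0.1 over 3 libraries (log axis), with one point per gene in the A20 circuit and 5 pathway lists; black lines are medians and the dotted line marks 1 TPM. The circuit spans 3.68 to 213 TPM, and the points below the line are 2 deubiquitinase genes and 3 relatives or adaptors.

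Among 7584 protein-coding genes averaging 100 or more counts, the 3 whose log2(TPM + 0.1) in the 3 libraries lay nearest to Tnfaip3 were Cxcl2, Sod2 and Mcl1. Their Euclidean distances were 0.32, 0.39 and 0.49. Cxcl2, a chemokine gene, was at 215, 114 and 246 TPM in replicates 1, 2 and 3. Sod2, the gene of the mitochondrial superoxide dismutase, was at 343, 132 and 253 TPM, and Mcl1, an anti-apoptotic gene, at 197, 127 and 299 TPM in the same libraries. In all 3 the low library was replicate 2, as for Tnfaip3, and with 3 libraries this likeness describes level more than shape. The distances were taken in the gene tables only. In the kallisto tables Cxcl2 was at 229, 87.0 and 194 TPM against 542, 198 and 473 TPM for Tnfaip3 in the same libraries. Sod2 lay nearer there, at 552, 187 and 373 TPM.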

How the data were processed

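The data are 3 libraries of ribosome-depleted chromatin RNA, all of 1 group. Annotation M21 of assembly mm10 was used and replicates were not pooled, per the file headers and the archive listing. The expected counts and TPM deposited by the authors are in a layout like that of RSEM. Estimated counts and TPM in a layout like that of kallisto were deposited too, and are called the kallisto tables here. A deposited signal column pair, the bounds of an interval of TPM, was not used for any result. The sources used here give no tool name, version, aligner or strand. Counting over annotated exons means that intronic reads appear only through intron-bearing isoforms.

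All 55536 gene identifiers were matched to GENCODE M21 (GRCm38, that is mm10), which gave symbols, isoform types and coordinates. Entries naming no gene, nearly all phiX, held 1.08%, 0.299% and 0.332% of counts in replicates 1, 2 and 3 and were left out. Counts were rounded for edgeR 4.0.16 (R 4.3.3, TMM factors, filterByExpr, slope on log2 starting RNA, Benjamini-Hochberg adjusted p below 0.05) and for DESeq2 1.42.0. Named genes were the 8 genes with isoforms of at least 5% of their TPM, the 3 highest and the lowest measured gene of each list, and the 3 nearest to Tnfaip3, with Python 3.11.15 and pandas 2.3.3. The genes, lists and tests were chosen with earlier results of these data known.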

Additional observations from a re-analysis of the deposited data

How the results depend on the processing

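The count of genes with a slope on starting RNA was 88 of 15065 with edgeR, TMM factors and a filter on low counts. It was 128 of 15065 with DESeq2 size factors and 158 of 23931 in the kallisto tables. On the unfiltered genes it was 79 of 24261 with DESeq2 and 284 of 24261 with edgeR. The sets tested differ in size, so the bare counts are not directly comparable. Without the filter Tnfaip3, at an edgeR adjusted p of 0.0196, and Tnip3, at 0.0172, both passed, and the cause was not tested. In the kallisto tables their edgeR adjusted p was 0.387 for Tnfaip3 and 0.163 for Tnip3. The slope of Itch turned to 0.039 in the kallisto tables, not past the threshold. Leaving out a replicate left no residual degrees of freedom, so slopes were then values without a test: 0.52 to 0.89 for Tnfaip3 and 0.58 to 0.85 for Tnip3, while those of the other 6 genes took either sign. All 8 genes stayed at or above 1 TPM in every setting, and 7 were above 5 TPM in every library. The number of neighbouring pairs with a kept order was 5, with 6 in the kallisto tables and 5 to 7 without one replicate. The log2 excess of Tnfaip3 over the median of the other genes was 2.64, and 2.38 to 2.93 without one replicate. Noncoding shares by counts and the replicate 2 scalings were chosen after seeing the data. Depth limits Rnf11 most, with 178 to 258 counts. No paired analysis was possible because there is 1 group.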
